A study of Arabidopsis thaliana with 12 samples.

Results

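In Arabidopsis roots that carry an estrogen-inducible Dof2.2 gene, 4704 of 16548 tested genes (28.4%) differed between estriol and mock plates. Below, these changes are given by process and family, from root hair walls, phenylpropanoid metabolism and transport to small secreted peptides and the DNA and RNA machinery. The induction is covered by 4 of the 12 arrays of the series, 2 with estriol and 2 with mock treatment. They were chosen by their titles, and the genes are those of all table rows that the probe annotation gives to exactly 1 gene, 16722 of 28583 rows. Where a gene had several rows the brightest was kept, which left the 16548 genes.

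All groups were entire roots of plants grown on GM plates in continuous light. Plants aged 68 h were moved for 16 h to plates with 10 µM estriol, an estrogen, or to mock plates. The Dof2.2 line had the genotype ER8Dof2.2/SUC2p::GFP-GUS, in which the transgene is switched on by estrogen and a reporter is driven by the promoter of SUC2, a sucrose transporter gene of phloem companion cells. For comparison, ER8Dof1.1/S32/Col and ER8PEAR2/SUC2p::GFP-GUS roots were treated in the same way. Each group had 2 biological replicates, per the titles. Every line analysed here carries an inducible Dof gene, so an effect of the transgene and an effect of estriol itself cannot be told apart. In whole roots, fewer cells of a type and less RNA per cell cannot be told apart either.

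Dof proteins are plant transcription factors with a single zinc finger, and several of them act in the early phloem, the tissue that carries sugars. The PEAR members of the family are known for driving divisions of the cells around young sieve elements. Root hairs are tubular outgrowths of epidermal cells that lengthen by building new wall at the tip, with expansins, xyloglucan enzymes, cellulases and structural glycoproteins among the proteins involved.

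Signals are log2 values, and changes are estriol minus mock on that scale with the standard error of the limma model. Adjusted p-values are from limma with the Benjamini-Hochberg method over all 16548 genes, and a gene rose or fell where this value was under 0.05. Group means below the lower quartile of all rows, 2.93 in estriol and 2.99 in mock arrays, are called dim. Whether dim signals exceed background was not tested, so the size of a change from or to them is not exact. Signals of different probes are not compared with each other.

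The arrays of each group resembled each other closely, with a correlation over all rows of 0.989 for the estriol pair and 0.988 for the mock pair, against 0.919 to 0.932 between an estriol and a mock array. Array medians were 5.41 to 5.58 with Dof2.2, 5.94 to 6.16 with Dof1.1 and 6.48 to 6.57 with PEAR2, so levels are not compared between lines. DOF2.2 (AT2G28810) had signals of 8.36 and 9.01 in estriol arrays, against 5.39 and 5.91 in mock arrays, a change of 3.04 ± 0.27 (adjusted p = 1.81e-05). The groups did not overlap. It rose in the other lines too, by 2.98 ± 0.27 with Dof1.1 and by 2.04 ± 0.27 with PEAR2, and its probe does not separate the transgene from the resident gene.

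Of the 16548 genes, 2452 rose (14.8%) and 2252 fell (13.6%). Shares of families and lists given in brackets below are to be read next to these shares of all genes. Falls outnumbered rises instead with centring on the 75th percentile (2184 rose, 2338 fell), on the line's arrays alone (1392 rose, 1703 fell) and without each of its arrays in turn. Falls were larger than rises: genes that fell had a median change of -1.49, and genes that rose one of 0.84. A change of at least 2-fold was reached by 931 genes that rose (5.63%) and 1599 that fell (9.66%), and at least 16-fold by 43 and 128. The median over all tested genes was 0.10, and it moved to 0.13 after quantile normalization over all arrays and to 0.07 after centring on the 75th percentile. Genes that fell were brighter before treatment, with a median mock signal of 6.6, than genes that rose, at 5.8, while genes that did not pass had 4.14. The groups did not overlap in 61.3% of all tested genes, and most genes named below were chosen among those whose groups did not overlap, so that pattern describes them and supports nothing. Among the genes that rose 312 were dim in mock arrays, and among those that fell 459 were dim in estriol arrays. Only 2177 of the tested genes have a name in the annotation, 351 of which rose and 325 fell, so the families below are seen through part of their members.

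**Figure D1:**
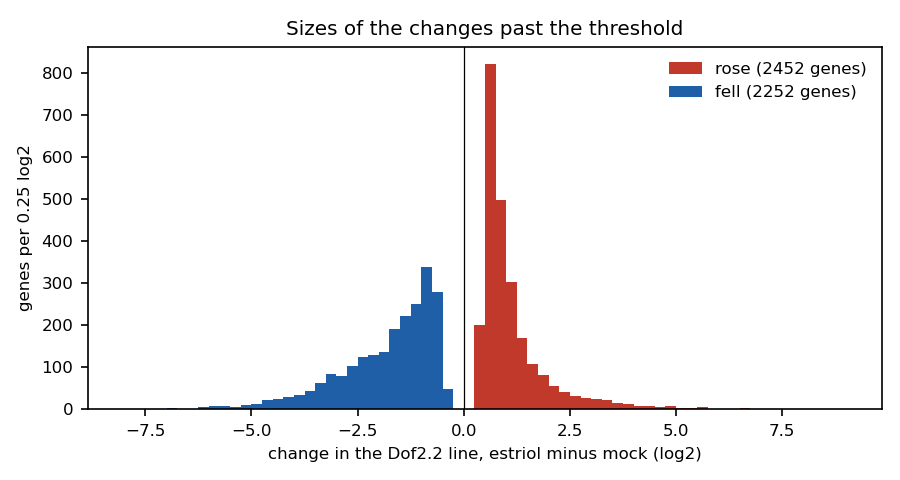
Number of genes per 0.25 log2 units of change in the Dof2.2 line, estriol minus mock, for the 2452 genes that rose (red) and the 2252 that fell (blue). Rises crowd below 1 log2 unit, while falls spread further, with a median of -1.49 against 0.84 for rises.

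Genes of root hair walls were among the largest named falls. All 5 measured genes of the list on root hair elongation, put together after the values were seen, fell, with a median change of -1.77. EXPA18, an expansin that loosens walls of growing root hairs, had signals of 5.53 and 5.19 in estriol arrays, against 10.48 and 10.57 in mock arrays, a change of -5.17 ± 0.15 (35.9-fold lower, adjusted p = 4.84e-08). EXPA7, its close relative in root hairs, had 4.83 and 4.94 in estriol arrays, against 9.41 and 9.13 in mock arrays, a change of -4.38 ± 0.19 (20.9-fold lower, adjusted p = 2e-07). Neither gene's groups came within 4 log2 units of each other. CSLD2, a cellulose synthase-like protein of root hair tips, had 6.70 and 6.66 in estriol arrays, against 8.56 and 8.34 in mock arrays. FER, a receptor kinase that controls hair growth, had 9.27 and 9.58 in estriol arrays, against 10.18 and 10.28 in mock arrays. SCN1, which restricts where on a cell hairs start, had 9.53 and 9.55 in estriol arrays, against 10.12 and 10.13 in mock arrays, the smallest of these changes at -0.58 ± 0.16 (adjusted p = 0.0189). The estriol signals of these 3 genes were all below their mock signals. The call of SCN1 was lost on the arrays of the Dof2.2 line alone and without each of its arrays in turn, which leaves 4 genes that fell.

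Of 24 measured expansins, 4 rose (16.7%) and 7 fell (29.2%), with a median of 0.04. Of all genes 14.8% rose and 13.6% fell, so the share of expansins that rose was near that of all genes. EXPA8 had 3.98 and 3.85 in estriol arrays, against 7.06 and 7.41 in mock arrays, a change of -3.32 ± 0.19. EXPB1, a beta-expansin, changed by -2.92 ± 0.24, with 7.29 and 7.02 in estriol arrays, against 10.0 and 10.16 in mock arrays. In the other direction, EXPA4 had 10.63 and 10.90 in estriol arrays, against 8.96 and 8.85 in mock arrays, a rise of 1.86 ± 0.19 (adjusted p = 4.27e-05). The rise of EXPA9 was smaller, with 11.97 and 12.07 in estriol arrays, against 11.14 and 11.18 in mock arrays. The family therefore held strong falls, of which 6 of 7 were at least 2-fold, beside its 4 rises, of which EXPA4 was the largest.

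Of the xyloglucan endotransglucosylases, which cut and rejoin the hemicellulose xyloglucan, 1 of 10 rose (10.0%) and 4 fell (40.0%), with a median of -1.04. XTH19 had 2.55 and 2.64 in estriol arrays, which is dim, against 5.98 in each mock array. XTH26 had 5.74 and 5.46 in estriol arrays, against 9.18 and 8.14 in mock arrays, a change of -3.06 ± 0.29. XTH32 changed by -2.42 ± 0.24 and XTH21 by -2.18 ± 0.42. All 4 had both estriol arrays below both mock arrays. XTH29 was the riser, with 6.54 and 7.01 in estriol arrays, against 2.27 and 3.28 in mock arrays, where it was dim.

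GH9 cellulases, which cut glucan chains, had 2 rises (10.5%) and 6 falls (31.6%) among 19, with a median of -0.06. GH9C1 had the largest change of the family, with 3.81 and 4.01 in estriol arrays, against 9.89 and 9.78 in mock arrays. This is a change of -5.92 ± 0.19 (60.8-fold lower, adjusted p = 7.19e-08). GH9B5 changed by -2.42 ± 0.24 and GH9B13 by -1.80 ± 0.16, while GH9A3 rose by 1.64 ± 0.30 and GH9B8 by 1.03 ± 0.17. All 4 measured members of the list of extensins and proline-rich proteins fell, but only 2 of them are hydroxyproline-rich glycoproteins, the structural proteins of walls. Of these, AT5G19800, annotated as HRGP2, had 4.96 and 5.01 in estriol arrays, against 8.30 and 9.01 in mock arrays. HRGP1 changed by -1.41 ± 0.22. The others are annotated as basic proline-rich proteins, a family known to bind microtubules: AT5G01280, annotated as BPP3, changed by -3.65 ± 0.18 and AT3G09000, annotated as BPP2, by -0.92 ± 0.14.

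Other wall families were split. Of 9 cellulose synthase-like genes, which make wall polysaccharides other than cellulose, 3 rose (33.3%) and 5 fell (55.6%), with a median of -0.67. CSLC12 had 4.01 and 3.97 in estriol arrays, against 7.74 and 7.15 in mock arrays, and CSLA03 changed by -3.25 ± 0.19 to a dim level. CSLC04, a synthase of the xyloglucan backbone, rose by 1.21 ± 0.17 and its relative ATCSLC08 by 1.55 ± 0.16. Within the CSLC group, members thus moved in both directions. Trichome birefringence-like proteins, a family that adds acetyl groups to wall polysaccharides, had 3 rises and 12 falls among 24 (median -0.42). TBL41 had 3.04 and 3.05 in estriol arrays, against 7.44 and 7.32 in mock arrays, a change of -4.33 ± 0.24 (adjusted p = 8.02e-07). TBL19 changed by -3.33 ± 0.27, whereas TBL26 rose by 1.86 ± 0.20 and TBL45 by 1.64 ± 0.19. Class III peroxidases, some of which cross-link walls and lignin, had 2 rises and 2 falls among the 8 counted by name. On the line's arrays alone there was 1 rise. Any peroxidases known by locus only were not counted, so the size and balance of the whole family's response are not shown. AT5G66390, annotated as PRX72, had 8.96 and 7.68 in estriol arrays, against 11.52 and 11.60 in mock arrays. PRX52 went the other way, with 9.02 and 7.74 in estriol arrays, against 5.47 and 6.35 in mock arrays. The estriol arrays of each of these genes differed by over 1 log2 unit.

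**Figure D2:**
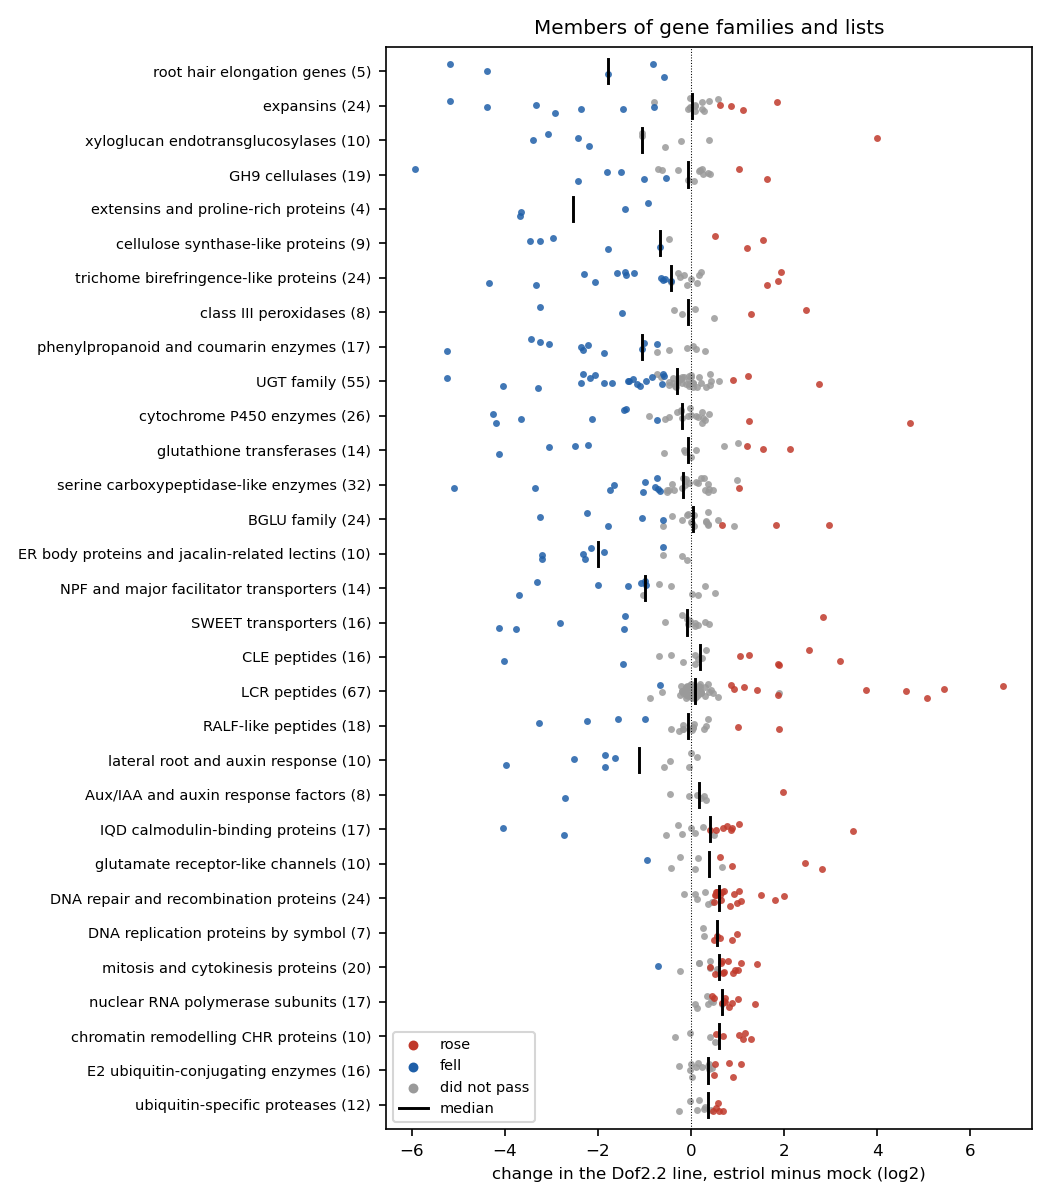
Log2 change, estriol minus mock, of each measured member of 31 families and lists in the Dof2.2 line, with the number of members in brackets. Red points rose, blue points fell, grey points did not pass, and black bars are medians. Wall and metabolic families reach far to the left, such as phenylpropanoid and coumarin enzymes with a median of -1.04, while the DNA and RNA machinery sits in a narrow band to the right, such as DNA repair and recombination proteins at 0.60.

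Phenylpropanoid enzymes turn phenylalanine into lignin units, sinapate esters and coumarins. The list for them was put together after the values were seen. Of its 17 measured genes none rose and 11 fell (64.7%), with a median change of -1.04. UGT72E1, a glucosyltransferase acting on lignin precursors, had 3.38 and 2.66 in estriol arrays, against 8.85 and 7.67 in mock arrays, a change of -5.24 ± 0.36 (37.8-fold lower, adjusted p = 3.39e-06). ALDH2C4, the aldehyde dehydrogenase that makes ferulate and sinapate, had 8.28 and 7.17 in estriol arrays, against 11.23 and 11.07 in mock arrays, a change of -3.42 ± 0.30. LAC16, of the laccase family of lignin-oxidising enzymes, had 4.97 and 4.24 in estriol arrays, against 6.96 and 8.33 in mock arrays. For all 3 genes the estriol arrays were the lower pair, though LAC16 varied by over 1 log2 unit between mock arrays. BGLU45, a glucosidase of lignin precursors, changed by -3.23 ± 0.31 to a dim level, and UGT72E2 by -2.36 ± 0.22 to a dim level. AT1G55290, annotated as F6'H2, an enzyme of coumarin synthesis, changed by -2.20 ± 0.30, and UGT84A4, a glucosyltransferase of hydroxycinnamates, by -2.32 ± 0.22 to a dim level. The other members that fell changed by -1.85 to -0.73. HCT, CCOAMT, CCR2 and 4CL8, whose families act in the central steps of the pathway, did not pass, with changes of -0.09 to 0.31.

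UGT enzymes attach sugars to small molecules. The 55 UGT genes counted by name had 3 rises (5.45%) and 19 falls (34.5%), with a median of -0.30. Any members known by locus only were not counted. UGT73D1 had 2.49 and 2.45 in estriol arrays, which is dim, against 6.50 and 6.49 in mock arrays. UGT71C1 had 3.41 and 3.59 in estriol arrays, against 6.76 and 6.79 in mock arrays, a change of -3.27 ± 0.15. UGT74F1, which glucosylates salicylic acid, was the largest rise among those counted. It had 6.58 and 6.94 in estriol arrays, against 4.06 and 3.97 in mock arrays. Replicates of these genes were within 0.4 log2 units of each other. Cytochrome P450 enzymes, which oxidise small molecules, had 2 rises (7.69%) and 7 falls (26.9%) among 26. CYP71B34 and CYP71B29 changed by -4.25 ± 0.41 and -4.18 ± 0.30, and CYP71B5 rose by 4.71 ± 0.27 from a dim mock level. In CYP71B5 the estriol arrays had 7.88 and 7.16, against 2.83 and 2.80 in mock arrays. Glutathione transferases, which conjugate glutathione to reactive compounds, had 3 rises (21.4%) and 4 falls (28.6%) among 14, next to 14.8% and 13.6% of all genes. GSTU22 had 5.22 and 4.96 in estriol arrays, against 9.03 and 9.39 in mock arrays. GSTU28 changed by -3.04 ± 0.23, and GSTU25 rose by 1.54 ± 0.19.

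Of 32 serine carboxypeptidase-like genes, a family of proteases and acyltransferases, 1 rose (3.12%) and 10 fell (31.2%), with a median of -0.18. The count of falls was 5 on the arrays of the Dof2.2 line alone, 4 without estriol replicate 2 and 5 without mock replicate 1, and the single rise was lost on those arrays alone and without estriol replicate 1. The gene scpl28 had 6.67 and 4.84 in estriol arrays, against 10.64 and 11.05 in mock arrays, a change of -5.09 ± 0.44 (adjusted p = 1.4e-05). Its estriol arrays differed by almost 2 log2 units yet both lay far below the mock arrays. SCPL34 changed by -3.35 ± 0.21. Of 24 genes of the BGLU family, glycosidases that release stored glycosides, 3 rose (12.5%) and 5 fell (20.8%), next to 14.8% and 13.6% of all genes, and 3 fell on the line's arrays alone or without mock replicate 1. BGLU40 had 8.19 and 8.56 in estriol arrays, against 5.16 and 5.65 in mock arrays, and BGLU41 rose by 1.82 ± 0.30.

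Endoplasmic reticulum bodies are compartments of the cabbage family that store a defensive glucosidase, PYK10, and jacalin-related lectins bind to this enzyme when cells break. Of 10 genes of this list, put together after the values were seen, none rose and 7 fell (70.0%), with a median of -2.0. NAI2, a protein needed to form the bodies, had 10.20 and 10.09 in estriol arrays, against 12.02 and 12 in mock arrays, a change of -1.86 ± 0.14 (adjusted p = 5.26e-06). NAI1, the transcription factor behind them, had 4.45 and 4.27 in estriol arrays, against 6.06 and 6.93 in mock arrays. The lectin gene JAL34 had 8.41 and 8.12 in estriol arrays, against 10.59 and 10.57 in mock arrays. In each, the estriol pair was clearly the lower one. JAL22 changed by -3.21 ± 0.44, JAL33 by -2.27 ± 0.29 and JAL31 by -3.20 ± 0.32 to a dim level. PYK10 itself had 12.32 and 12.34 in estriol arrays, against 12.94 and 12.91 in mock arrays, a change of -0.59 ± 0.15 (adjusted p = 0.0147). That call was lost on the line's arrays alone and without each of them in turn, with adjusted p-values of 0.0501 to 0.0615. Both measured metallothioneins, small copper-binding proteins, fell as well. MT1C had 9.13 and 8.69 in estriol arrays, against 11.87 and 11.83 in mock arrays, and MT1B changed by -3.10 ± 0.36 to a dim level.

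**Figure D3:**
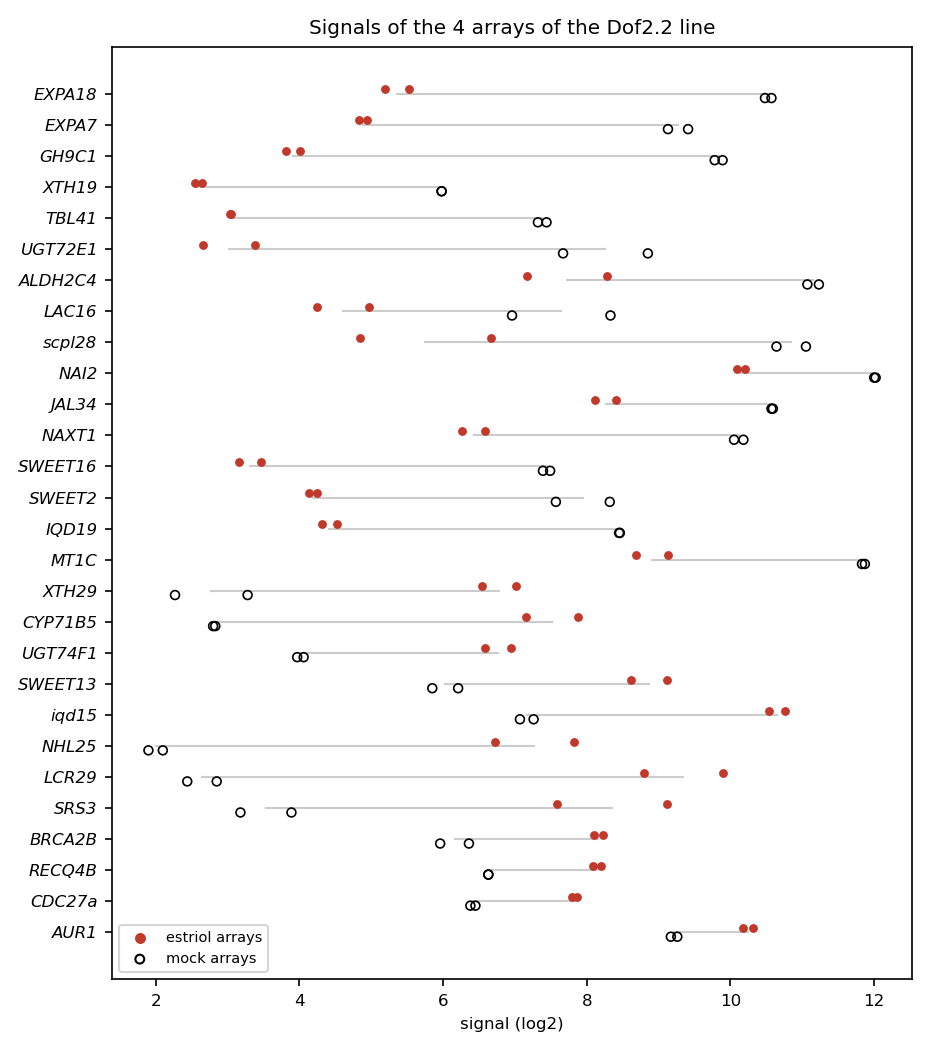
Log2 signals of 28 genes in the 2 estriol arrays (filled red) and the 2 mock arrays (open) of the Dof2.2 line, with grey lines joining group means. The genes were chosen among those whose pairs do not overlap, for example EXPA18 at 5.53 and 5.19 with estriol, against 10.48 and 10.57 with mock treatment.

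In the NPF and SWEET lists of transporters, falls again outnumbered rises. Of 14 genes for carriers of nitrate, peptides and other solutes of the NPF and related major facilitator families none rose and 7 fell (median -0.98), and 4 fell without mock replicate 2. NAXT1, a nitrate excretion carrier of roots, had 6.26 and 6.59 in estriol arrays, against 10.18 and 10.05 in mock arrays, a change of -3.69 ± 0.17 (12.9-fold lower, adjusted p = 3.03e-07). GTR2, a glucosinolate importer, had 8.80 and 8.54 in estriol arrays, against 10.04 and 9.99 in mock arrays. Its partner GTR1 had 7.64 and 7.42 in estriol arrays, against 8.50 and 8.53 in mock arrays. Both importers had smaller changes than NAXT1. AT1G72125, annotated as NPF5.13, changed by -3.31 ± 0.27.

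SWEET proteins let sugars cross membranes. Of 16 measured, 1 rose (6.25%) and 5 fell (31.2%), and 4 rose without mock replicate 2. SWEET16, a carrier of the vacuole membrane, had 3.16 and 3.46 in estriol arrays, against 7.39 and 7.49 in mock arrays. SWEET2, a vacuolar carrier of the root, had 4.25 and 4.13 in estriol arrays, against 7.57 and 8.32 in mock arrays. SWEET17, which moves fructose across the vacuole membrane, changed by -2.81 ± 0.27 to a dim level. These 3 vacuolar carriers were all lower in both estriol arrays. SWEET13, a sucrose carrier of the plasma membrane, was the riser, with 8.61 and 9.12 in estriol arrays, against 5.85 and 6.21 in mock arrays, a change of 2.83 ± 0.26 (adjusted p = 2.09e-05). SWEET11, the sucrose carrier of phloem parenchyma, had 7.42 and 8.42 in estriol arrays, against 6.57 and 8.68 in mock arrays. Its groups overlapped and its change of 0.29 ± 0.55 did not pass, but without mock replicate 2 it was 1.35 and passed (adjusted p = 0.0268).

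LCR29 and LCR25 had the largest rises among genes with a symbol. LCR genes encode small cysteine-rich secreted peptides related to defensins. Of 67 measured, 10 rose and 1 fell, with a median of 0.08, and 54 were dim in mock arrays. LCR29 had 8.79 and 9.90 in estriol arrays, against 2.85 and 2.44 in mock arrays, where it was dim. LCR25 had 7.63 and 9.86 in estriol arrays, against 3.45 and 3.15 in mock arrays, a change of 5.45 ± 0.57 (adjusted p = 5.12e-05). LCR30 had 7.87 and 8.41 in estriol arrays, against 3.03 and 3.1 in mock arrays, a change of 5.08 ± 0.28. In each the estriol arrays stood more than 4 log2 units above the mock arrays, with LCR25 the most variable. LCR39 had 8.79 and 10.04 in estriol arrays, against 4.73 and 4.85 in mock arrays. LCR68, bright before treatment, had 11.85 and 12.09 in estriol arrays, against 10.84 and 10.83 in mock arrays. The other 56 members did not pass, and the share that rose was 14.9%, next to 14.8% of all genes. The only fall, that of LCR59 between dim levels, was lost in several settings, among them leaving out mock replicate 1, estriol replicate 1 or estriol replicate 2, each with 0 falls.

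Of 18 RALF-like genes, which encode peptides sensed by FER and its relatives, 2 rose (11.1%) and 4 fell (22.2%), next to 14.8% and 13.6% of all genes, and 1 rose on the line's arrays alone or without either estriol array. RALFL27 had 2.58 and 2.27 in estriol arrays, against 5.65 and 5.74 in mock arrays, and RALFL18 changed by -2.24 ± 0.28, both to a dim level. RALFL31 rose by 1.0 ± 0.21. Of the CLE peptides, which act through receptor kinases in meristems and vascular tissue, 6 of 16 rose (37.5%) and 2 fell (12.5%). CLE14 had 3.80 and 3.77 in estriol arrays, against 8.01 and 7.60 in mock arrays, and CLE25, a peptide of young phloem, had 8.38 and 8.73 in estriol arrays, against 6.09 and 5.95 in mock arrays.

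Of 10 genes for lateral root and auxin response none rose and 5 fell (median -1.10). LBD29, a factor of lateral root initiation, changed by -1.85 ± 0.39. The list of Aux/IAA and auxin response factors had 8 measured members, all of them Aux/IAA genes, of which 1 rose (12.5%) and 1 fell (12.5%), near the shares of all genes. IAA31 had 4.27 and 4.61 in estriol arrays, against 7.12 and 7.15 in mock arrays, a change of -2.69 ± 0.18. IAA18 had 6.68 and 7.02 in estriol arrays, against 4.81 and 4.91 in mock arrays, a rise of 1.99 ± 0.19.

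IQD proteins bind calmodulin and microtubules. Of 17 measured, 8 rose (47.1%) and 2 fell (11.8%), with a median of 0.42. On the line's arrays alone 4 rose, and 5 rose without mock replicate 1 or without estriol replicate 2. The gene iqd15 had 10.54 and 10.76 in estriol arrays, against 7.26 and 7.07 in mock arrays, a change of 3.48 ± 0.20 (11.2-fold, adjusted p = 1.02e-06). IQD19 had 4.31 and 4.52 in estriol arrays, against 8.46 and 8.45 in mock arrays, a change of -4.04 ± 0.26. IQD20 had 5.69 and 5.61 in estriol arrays, against 8.42 and 8.32 in mock arrays. These 3 members changed most, and the other rises were of 0.42 to 1.03. Glutamate receptor-like channels, which let calcium and other cations into cells, had 4 rises (40.0%) and 1 fall (10.0%) among 10. The fall was lost on the line's arrays alone and without mock replicate 1 or estriol replicate 2. GLR2.9 had 6.31 and 6.87 in estriol arrays, against 4.15 and 3.4 in mock arrays. ATGLR1.2 had 6.11 and 5.89 in estriol arrays, against 3.23 and 3.88 in mock arrays. Of 3 NDR1/HIN1-like genes, named after defence proteins of Arabidopsis and tobacco, 2 rose (66.7%). NHL25 had 6.72 and 7.82 in estriol arrays, against 2.1 and 1.9 in mock arrays, where it was dim. AT5G53730, annotated as NHL26, had 7.77 and 8.27 in estriol arrays, against 3.88 and 4.40 in mock arrays.

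Smaller changes, in many genes at a time, were found in lists for copying, repairing and packaging DNA, dividing the nucleus and transcribing genes. These lists were put together after the values were seen, so their counts describe the members and support nothing further. Related lists were less uniform. Of 11 kinesins and microtubule-associated proteins 2 rose (18.2%) and 2 fell (18.2%). Of 5 histones 1 rose (20.0%), of 6 LSM proteins 1 (16.7%) and of 6 THO complex proteins 2 (33.3%), next to 14.8% of all genes, and none of these fell. The 1 gene measured on the cyclin list fixed at the start rose, as did the 1 on its DNA replication list. Of 24 DNA repair and recombination genes 18 rose and none fell (median 0.60). BRCA2B, which loads the recombinase onto broken DNA, had 8.10 and 8.22 in estriol arrays, against 6.36 and 5.96 in mock arrays, a rise of 2.0 ± 0.21 (4-fold, adjusted p = 5.77e-05). POLH, a polymerase that copies past damaged bases, had 7.03 and 7.36 in estriol arrays, against 5.70 and 5.08 in mock arrays. RECQ4B, a helicase of recombination, had 8.08 and 8.20 in estriol arrays, against 6.63 in each mock array. The rises of all 3 were at least 1.5 log2 units. FANCM, a helicase that limits crossovers, rose by 0.99 ± 0.17, and RAD9, of the damage checkpoint clamp, by 1.03 ± 0.18. The count of 18 rises was 9 on the line's arrays alone and 10 without mock replicate 2.

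Of 7 DNA replication genes 5 rose (71.4%) and none fell (median 0.56). They were led by POLD3, a subunit of replicative polymerase delta, at 0.98 ± 0.17 and POLA3, of primase, at 0.88 ± 0.17. Only 2 rose on the line's arrays alone, without mock replicate 2 or without estriol replicate 1. Of 20 genes for mitosis and cytokinesis 12 rose (60.0%) and 1 fell (5.0%), with a median of 0.62. CDC27a, a subunit of the anaphase-promoting complex, had 7.79 and 7.87 in estriol arrays, against 6.45 and 6.38 in mock arrays. AUR1, an Aurora kinase of the spindle and cell plate, had 10.17 and 10.31 in estriol arrays, against 9.17 and 9.26 in mock arrays. HTR12, the histone of centromeres, had 9.42 and 9.44 in estriol arrays, against 8.47 and 8.49 in mock arrays. In these genes the arrays of a group were within 0.2 log2 units of each other. AUR3 rose by 0.91 ± 0.17. The single mitotic fall was lost on the line's arrays alone, and the count of rises was 6 on the line's arrays alone, 5 without mock replicate 2 and 7 without estriol replicate 1.

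Of 17 subunits of the nuclear RNA polymerases 10 rose (58.8%) and none fell, with a median of 0.67. NRPB9A, of RNA polymerase II, had 4.96 and 5.24 in estriol arrays, against 3.85 and 3.57 in mock arrays. The count was 4 on the line's arrays alone, 1 without estriol replicate 2, and 5 without mock replicate 1 or mock replicate 2. Among 10 chromatin remodelling CHR genes 6 rose (60.0%) and none fell, with a median of 0.61. CHR24 had 9.14 and 9.08 in estriol arrays, against 7.87 and 7.76 in mock arrays, and CHR23 had 7.27 and 7.05 in estriol arrays, against 6.03 and 5.97 in mock arrays. Both rises were over 1 log2 unit. Lists for protein turnover were mixed. Of 16 E2 ubiquitin-conjugating enzymes 5 rose (31.2%) and none fell, and of 12 ubiquitin-specific proteases 5 rose (41.7%) and none fell. Of 10 plant U-box ligases none rose and 3 fell, and of 9 ATG8 autophagy proteins 3 rose and 2 fell. Of 4 ATL RING ligases 2 rose and of 7 ASK adaptors of ubiquitin ligases 1 rose, and none of either fell. Of all genes 14.8% rose and 13.6% fell, so the share of ASK adaptors that rose was near that of all genes. The U-box, ATG8, ATL and ASK lists are small, and whether their counts depart from those shares was not tested. UBC29 rose by 1.08 ± 0.20, UBC27 by 0.92 ± 0.18 and UBP21 by 0.69 ± 0.16. The E2 count was 2 on the line's arrays alone and without estriol replicate 2, and 3 without either mock array. The protease count was 1 on the line's arrays alone, without mock replicate 2 and without estriol replicate 1, and 3 without mock replicate 1.

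Several families had few or no calls. None of the 63 plastid-encoded genes passed (median 0.06), and none of 8 mitochondrial NADH dehydrogenase subunits (median 0.07) or 15 secretory and exocyst SEC genes (median 0.16). Of 14 ESCRT and vacuolar sorting genes and 9 Mediator subunits, 1 each rose (7.14% and 11.1%, next to 14.8% of all genes). MADS-box factors, with 67 measured, had 2 rises (2.99%) and 3 falls (4.48%), and 48 of the 67 were dim in mock arrays. One MADS riser was AGL80, a factor known from the female gametophyte, with 10.31 and 10.60 in estriol arrays, against 7.05 and 7.26 in mock arrays.

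Markers of cell types were measured only in part. Both measured root hair markers, EXPA7 and EXPA18, fell, as given above. Of 5 phloem markers 3 rose (60.0%). CLE25 rose by 2.54 ± 0.15 and OPS, a protein of young sieve elements, by 1.29 ± 0.15. CLE26 rose by 1.25 ± 0.28, a call that was lost without estriol replicate 2 (adjusted p = 0.0577). CLE45 and SWEET11 did not pass. Of the xylem list only PHV and LHW were measured, which are vascular regulators and do not mark xylem cells alone. PHV rose by 1.24 ± 0.16 and LHW by 0.80 ± 0.16, the second not on the line's arrays alone (adjusted p = 0.0544). The other genes of that list were not among the tested genes, so xylem cells are not covered here. The 1 endodermis and 1 nonhair epidermis gene measured did not pass, and no root cap or shoot photosynthesis marker was among the tested genes. The part that cell type shares play in the falls of wall genes and the rises above was not tested.

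Genes that changed had a neighbour called the same way somewhat more often than all genes did, though most had none. Of 1943 genes that fell and had a measured neighbour, 29.5% had one beside them that also fell, while 19.2% of all 14065 genes with a measured neighbour had a falling one beside them. For rises the shares were 25.9% of 2051 genes and 20.1% of all. Runs of at least 4 neighbours called in one direction numbered 20, and how many would arise by chance was not tested. On chromosome 1 the 5 genes AT1G51830 to AT1G51870 fell, with changes of -6.04 to -2.08, and on chromosome 2 the 4 genes AT2G44370 to AT2G44400 fell, with changes of -6.83 to -1.18. On chromosome 5 the 5 genes AT5G67090 to AT5G67130 rose by 0.57 to 3.14, among them ICU2, the catalytic subunit of DNA polymerase alpha. Neighbouring copies of a gene can share probe sequence, and whether these do was not tested.

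The last question was where the response of the Dof2.2 line departs from those of the other lines. The differences of responses were tested in the same model, with no arrays shared between the lines. The Dof2.2 response differed from the Dof1.1 response in 254 genes (1.53%), higher in 97 (0.586%) and lower in 157 (0.949%), and from the PEAR2 response in 275 genes (1.66%), higher in 50 (0.302%) and lower in 225 (1.36%). Without mock replicate 1 of the Dof2.2 line, the first count was 167. In 47 genes it differed from both, being higher than both in 13 and lower than both in 33. The lines have different array medians and the Dof1.1 line has another genotype beside its transgene, and their part in these differences was not tested.

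Several wall genes and a nitrate carrier fell further than in the PEAR2 line. GH9C1 changed by -5.92 in the Dof2.2 line, by -5.16 with Dof1.1 and by -2.25 with PEAR2, and the difference from PEAR2 was -3.67 ± 0.27 (adjusted p = 0.000146). EXPA18 changed by -5.17, -3.98 and -1.88 in the same order of lines, and its difference from PEAR2 was -3.29 ± 0.22 (adjusted p = 9.58e-05). EXPA7 differed from PEAR2 by -2.44 ± 0.26, EXPA8 by -1.94 ± 0.26 and the nitrate carrier NAXT1 by -1.60 ± 0.24. These 5 genes fell in all 3 lines, with the smallest fall in the PEAR2 line. GSTU22 and CLE14 likewise differed from PEAR2, by -1.90 ± 0.23 and -2.22 ± 0.30. The differences of EXPA7, GH9C1, NAXT1, GSTU22 and CLE14 from Dof1.1 did not pass, while that of EXPA18, -1.19 ± 0.22, passed (adjusted p = 0.026) but was lost in 6 alternatives, including quantile normalization over all arrays (adjusted p = 0.0642).

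**Figure D4:**
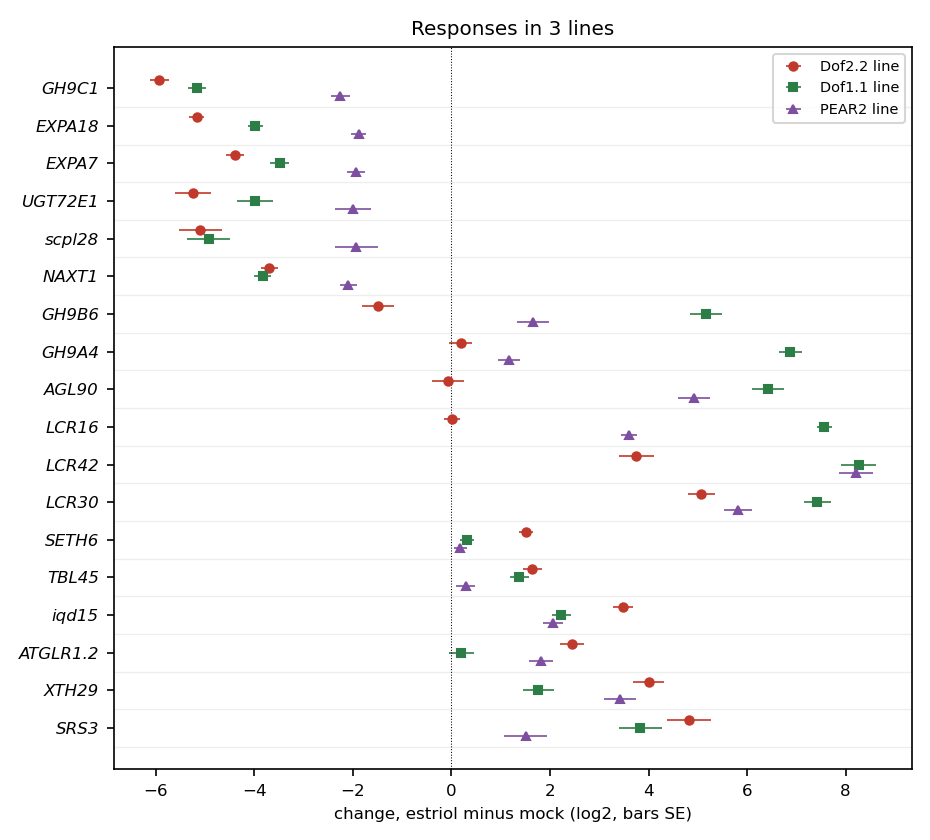
Log2 change, estriol minus mock, with bars of 1 SE, of 18 genes in the Dof2.2 line (red circles), the Dof1.1 line (green squares) and the PEAR2 line (purple triangles). GH9C1 lies at -5.92, -5.16 and -2.25 in these lines, while LCR16 lies at 0.02 in the Dof2.2 line against 7.57 and 3.61 in the others.

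Some genes that rose strongly in at least 1 of the other lines rose less, did not pass or fell in the Dof2.2 line. LCR16 had 1.75 and 1.4 in estriol arrays, against 1.67 and 1.44 in mock arrays of the Dof2.2 line, all dim. Its change of 0.02 stood against rises of 7.57 with Dof1.1 and 3.61 with PEAR2, differences of -7.55 ± 0.23 and -3.59 ± 0.23 (adjusted p = 2.7e-07 and 9.58e-05). AGL90, a MADS-box factor, had 1.66 and 1.62 in estriol arrays, against 1.88 and 1.55 in mock arrays, and rose by 6.43 with Dof1.1 and 4.92 with PEAR2. For both genes the 2 groups of the Dof2.2 line overlapped. LCR42 had 4.60 and 5.88 in estriol arrays, against 1.73 and 1.24 in mock arrays, so it rose by 3.75, with differences of -4.50 ± 0.49 from Dof1.1 and -4.46 ± 0.49 from PEAR2. GH9A4 changed by 0.19 ± 0.23, with 3.49 and 3.11 in estriol arrays, against a mean of 3.11 in mock arrays. It rose by 6.88 in the Dof1.1 line (difference -6.69 ± 0.32). In the PEAR2 line GH9A4 rose by just 1.175, and the difference of -0.985 from that line did not pass (adjusted p = 0.226). GH9B6 went in opposite directions: its signals were 4.32 and 3.74 in estriol arrays, against 5.40 and 5.65 in mock arrays, a change of -1.50, while it rose by 5.17 with Dof1.1 and 1.66 with PEAR2. Its fall did not pass without estriol replicate 2 (adjusted p = 0.0538), and its difference from Dof1.1 was -6.67 ± 0.46 (adjusted p = 6.34e-05).

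Other named genes rose more in the Dof2.2 line than in at least 1 of the others. SETH6 had 6.84 and 6.91 in estriol arrays, against 5.38 and 5.35 in mock arrays, a rise of 1.51, next to changes of 0.33 with Dof1.1 and 0.18 with PEAR2. Its difference was 1.32 ± 0.20 from PEAR2 (adjusted p = 0.00859) and 1.19 ± 0.20 from Dof1.1 (adjusted p = 0.0152), the second lost on the arrays of these lines alone and without mock replicate 1 or estriol replicate 2. ATGLR1.2 rose by 2.44 in the Dof2.2 line, had a change of 0.20 with Dof1.1 and rose by 1.82 with PEAR2, a difference from Dof1.1 of 2.24 ± 0.35 (adjusted p = 0.0116). The kinase gene WNK9 had 7.22 and 7.41 in estriol arrays, against 5.54 and 5.59 in mock arrays. Its rise of 1.75 exceeded the change of 0.03 in the PEAR2 line by 1.73 ± 0.27. With Dof1.1, WNK9 rose by 2.06, and its difference from that line did not pass (adjusted p = 0.84). SRS3, a factor of the SHI family, had 7.59 and 9.12 in estriol arrays, against 3.89 and 3.18 in mock arrays. With Dof1.1, SRS3 rose by 3.835, and its difference from that line did not pass (adjusted p = 0.699). SRS3 exceeded its PEAR2 response by 3.31 ± 0.63 (adjusted p = 0.0294). That difference was lost on the arrays of these lines alone, with same-numbered arrays as a block and without mock replicate 2. Of 45 differences past the threshold among the named genes followed through the settings, 23 were past it in every setting tried.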

How the data were processed

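Roots of 3 Arabidopsis lines were profiled on 12 one-colour arrays with biotin labels (GeneChip WT terminal labelling). The deposited values are log2 signals, and RMA is the method named by the submitters' processing notes. Software, versions and genome build: not given in the sources used here. Quantiles lay closer within lines than between them, so the lines look normalized separately.

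Of 28583 rows, the probe annotation lists 17481, of which 16722 name 1 gene and 759 several. The 16722 were matched to the TAIR10.1 annotation, 16574 by gene identifier and 148 by name, and 148 genes had several rows, of which the one with the highest mean was kept. Of the 16548 genes, 14743 are known by locus only. The 11861 rows without exactly 1 gene are not named.

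One limma 3.58.1 model (R 4.3.3) of 6 group means was fitted over all 12 arrays, with 6 residual and 3.94 prior degrees of freedom. The contrasts were estriol minus mock in the Dof2.2 line and its differences from the Dof1.1 and PEAR2 responses. Tests are two-sided, with Benjamini-Hochberg adjustment over 16548 genes and a threshold of 0.05. The number of arrays limits the precision. In simulated data for this induction, 50 of 16548 genes were changed per size. The model recovered 8%, 54% and 90% of 1.5-fold, 2-fold and 4-fold rises and 42% of 2-fold falls, with 7 false calls. Far fewer genes were changed there than the 28.4% called in the data, which makes the adjusted threshold stricter. Those shares therefore need not hold for the data.

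Families and lists are counted by members that rose, fell or did not pass. Named genes were drawn from up to 4 rises and 4 falls per list with groups apart. Further candidates were the 30 largest changes each way and the 6 highest and lowest differences from each line. The text does not name all of these. The largest rise and fall with groups apart, AT1G47317 at 8.71 and AT1G05660 at -7.02, are known by locus only and are not described above. Members and lists were chosen with earlier results of these data known. Other named genes, and 55 added lists, such as those for DNA, RNA polymerase, IQD and root hair genes, were chosen after their values were seen.

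The alternatives changed the scaling (quantile over all arrays, or the 75th percentile of each array set to the mean 75th percentile of all arrays). Others dropped the dimmest 25% of genes, used trended robust variances, weighted arrays by quality or fitted just the compared lines. The rest added a replicate block, kept all rows, required 2-fold, or removed each array in turn.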

Additional observations from a re-analysis of the deposited data

Results flagged for a closer look

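Responses of named genes that differed from another line by the test of the difference itself are given here as Dof2.2 change minus the other line's change, on the log2 scale. No explanation was tested.

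Against the Dof1.1 line the following passed in every setting tried. The difference was -6.67 for GH9B6, -6.69 for GH9A4, -4.50 for LCR42, -7.55 for LCR16, -6.50 for AGL90, -4.43 for UBC31 and 2.24 for ATGLR1.2. UBC31 had 2.54 and 2.65 in estriol arrays, against 2.02 and 1.52 in mock arrays of the Dof2.2 line, all dim, and rose by 5.26 in the Dof1.1 line. Past the threshold with all arrays but lost in at least 1 setting were EXPA18 at -1.19, XTH29 at 2.23, LCR30 at -2.35, LCR39 at -2.69, AT5G53730 at 1.51, SETH6 at 1.19 and the soluble epoxide hydrolase gene SEH at 1.14.

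Against the PEAR2 line the expansin genes EXPA18 (-3.29), EXPA7 (-2.44) and EXPA8 (-1.94), the cellulase gene GH9C1 (-3.67) and AT5G01280 (-1.84), a basic proline-rich protein gene, passed in every setting tried. So did UGT73D1 (-1.52), GSTU22 (-1.90), NAXT1 (-1.60), CLE14 (-2.22), the pirin gene PRN (-2.27), the prenylated Rab acceptor gene PRA1.G1 (-2.01), WNK9 (1.73) and SETH6 (1.32). The peptide genes LCR42 (-4.46) and LCR16 (-3.59) and AGL90 (-5.0) did as well.

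Lost in at least 1 setting against PEAR2 were the falls that were deeper in the Dof2.2 line for UGT72E1 (-3.25), UGT71C1 (-1.30), scpl28 (-3.17), MT1C (-1.70), SWEET16 (-1.66), IAA31 (-1.34), IQD19 (-1.86), IQD20 (-1.21) and the tetraspanin gene TET12 (-1.83). The same holds for GH9B6 (-3.15) and SWEET11 (-3.71), and for the larger rises of TBL45 (1.34), iqd15 (1.42), GLR2.9 (2.04) and SRS3 (3.31).

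Rows of the table that the annotation does not give to exactly 1 gene also changed. Of 11861 such rows 3953 passed the threshold (33.3%), 2034 as rises and 1919 as falls, next to 28.4% of the tested genes. They stand outside every count of genes given above.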

How the results depend on the processing

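Some named genes, among them LCR59, LBD29 and ICU2, were not followed one by one through the settings. Among those that were, no change or difference that passed the threshold changed sign in any setting tried. The balance of rises and falls did turn. With 2452 rises and 2252 falls in the Dof2.2 line, fitting only the line's arrays gave 1392 and 1703, the replicate block of same-numbered arrays gave 3088 and 2513, a 2-fold minimum gave 931 and 1599, and all rows of the table gave 4610 and 4219 (rows are counted here, not genes). Quantile normalization gave 2880 and 2193, and centring on the 75th percentile gave 2184 and 2338, so falls outnumbered rises with that centring, with a 2-fold minimum and on the line's arrays alone, and they did so without each array. Leaving out 1 array gave 1646 to 1918 rises and 1774 to 1994 falls, and kept 60.4% to 70.7% of the rises and 76.5% to 83.1% of the falls called with all arrays. The 254 differences from Dof1.1 were 154 on the arrays of those lines alone, 397 over all rows, 224 with the replicate block and 167 to 277 leaving out 1 array of the Dof2.2 line, with 167 without mock replicate 1. The 275 differences from PEAR2 were 490 over all rows, 229 with the replicate block and 192 to 355 leaving out 1 array. The deviations of same-numbered estriol and mock arrays from their group means correlated by 0.17 (Dof2.2), 0.32 (Dof1.1) and 0.13 (PEAR2). Each line has 2 such pairs and no label ties them, so the block stayed an alternative. Of 123 genes that passed among the named genes followed in this way, 117 passed in every setting, and of 45 of their differences 23 did. Among list counts, 22 of 496 under other settings and 29 of 248 leaving out 1 array moved by over 1.5 times. Beyond the fewer arrays or the added rows that some settings hold, the cause was not tested. Most 1.5-fold rises were missed in the simulated data, where far fewer genes changed, and how many are missed here is not known. In the data, 1521 rises and 653 falls of less than 2-fold were called. Changes from or to a dim signal are not exact in size.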
